A study of Oikopleura dioica with 8 samples.

Results

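Among the mRNAs of whole *Oikopleura dioica* that were abundant and changed little in level when animals left growth arrest, the 200 gene models with the fewest ribosome footprints per RNA read were examined. *O. dioica* is a small planktonic tunicate that can halt growth when crowded and short of food. Gene models were chosen by measured values: a level of at least 50 RPM (reads of a gene model per 1000000 reads of its library) in all 4 total RNA libraries, and a mean total RNA level in release over that in stasis between 0.67 and 1.5. The study's TOP ortholog genes (88 genes of the translation machinery and related genes) and 14 gene models annotated as myosin heavy chain, tropomyosin or myosin-binding protein were left out. The annotation at hand covered 1998 gene models, so muscle gene models outside it may remain. Of 17212 gene models, 3486 passed the RNA minimum and 2885 were eligible after the remaining conditions. The 200 with the lowest ratio of ribosome protected fragment (RPF) reads to total RNA reads, each summed over 4 libraries, are called the low-footprint mRNAs here, and the 200 eligible gene models with the highest ratio served for comparison.

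The release animals had been moved from crowded culture to normal density for 30 min, and the stasis animals were still crowded and growth-arrested, both on day 7. The paper describes release by dilution with food present, and growth arrest under nutrient depletion and high density. Density and food therefore cannot be told apart in this comparison. Both groups were unmodified whole animals, pooled for each sample, with 2 samples of each state. Each sample gave a total RNA library and an RPF library. The paper calls the samples of a state biological replicates, but no source states that they came from separate cultures. With 2 samples per state, p-values measure only the spread between these samples.

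In ribosome profiling, nuclease digestion leaves the stretches of mRNA that ribosomes cover, and the sequenced fragments report how many ribosomes were on an mRNA. Relative to the level of the mRNA this gives its translational efficiency (TE). An mRNA can be stored with few ribosomes and loaded later, as maternal mRNAs are in animal oocytes. Some *O. dioica* mRNAs receive a spliced leader at their 5′ end by *trans*-splicing. The ratio of reads does not account for the share of an mRNA that is coding, which was not used here.

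Total RNA libraries held 15801289 and 22839600 reads in release and 13931680 and 13041273 reads in stasis, and RPF libraries held 1240592 and 308680 reads in release and 1488886 and 261745 in stasis (replicate 1 and replicate 2 of each state). The second RPF replicates were therefore the shallow ones in both states. 7 gene models, none of them a low-footprint mRNA, each took over 1% of an RPF library, and together they held 19.9% and 41.7% of RPF reads in release and 23.8% and 57.1% in stasis. That share was higher in the second RPF replicate of each state. Gene models annotated as oikosins, proteins of the mucous house that the animal's outer epithelium secretes, summed to 8839 and 8266 RPM of total RNA in release and 6942 and 7337 RPM in stasis, and to 9928 and 5119 RPM of RPF in release and 11431 and 3068 RPM in stasis. The 23 annotated muscle gene models summed to 5587 and 2379 RPM of total RNA in release and 1980 and 2106 RPM in stasis, and to 7675 and 2300 RPM of RPF in release and 1978 and 1310 RPM in stasis. Of these, 2 of 12 oikosin and 0 of 23 muscle gene models were eligible, so the absence of both lists from the low-footprint mRNAs carries no information.

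The low-footprint mRNAs held 3.63% of all total RNA reads (2379901 reads) and 0.388% of all RPF reads (12814 reads). By library, their share of total RNA reads was 3.51% and 3.52% in release and 3.78% and 3.80% in stasis. Their share of RPF reads was 0.369% and 0.621% in release and 0.300% and 0.712% in stasis. The total RNA share barely differed between replicates, whereas the RPF share was higher in the second replicate of each state, so the states overlapped. For comparison, the 200 with the most footprints held 5.63% of total RNA reads and 12.1% of RPF reads.

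Since the ratio chose the members, its values are given as a description. The low-footprint mRNAs had 0.906 to 7.59 RPF reads per 1000 total RNA reads, and the median member had 5.56. The median eligible gene model had 24.5, and the 200 with the most footprints ran upward from 75.04 around a median of 94.0. At the threshold, the last gene models taken were GSOIDT00004050001, GSOIDT00000313001 and GSOIDT00003329001, each with 7.59 RPF reads per 1000 total RNA reads. The first ones not taken were GSOIDT00016295001, with 7.60, GSOIDT00012266001, annotated as a serpin proteinase inhibitor, with 7.61, and GSOIDT00004957001, with 7.64. No gap in the distribution separated the low-footprint mRNAs from the remaining gene models.

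**Figure D1:**
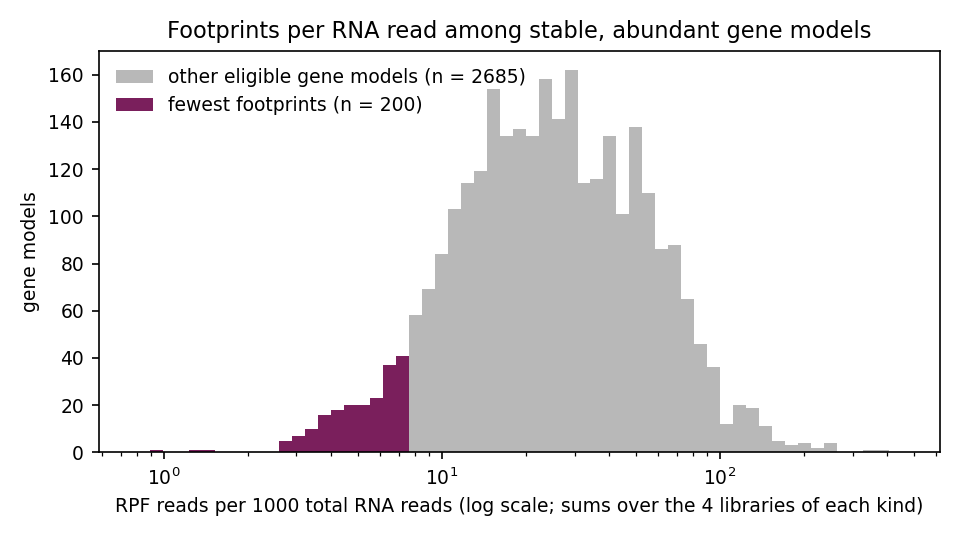
Histogram of RPF reads per 1000 total RNA reads (horizontal axis, log scale, sums over 4 libraries of each kind) for 2885 stable, abundant gene models, with the count of gene models on the vertical axis. The 200 low-footprint mRNAs are the lower tail, ending at 7.59, of a single continuous distribution with its median at 24.5.

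The low-footprint mRNAs were about as abundant as the other eligible ones. Their mean total RNA level ran from 53.5 to 3478 RPM with a median of 95.1 RPM, against a median of 102 RPM over the eligible gene models. When the eligible gene models were split by total RNA level into 4 classes of about equal size, 60, 50, 41 and 49 of the low-footprint mRNAs lay in the classes from the lowest to the highest. The gene models with the most footprints were spread as 40, 30, 41 and 89. Within the limits that the choice set, the median total RNA level in release over that in stasis was 0.878 for the low-footprint mRNAs. Of them, 37 of 200 (18.5%) were above 1, compared with 33.0% of the eligible gene models. Total RNA was lower in both release libraries than in both stasis libraries for 121 of 200, and higher for 26. Among the 2885 eligible gene models these counts were 1438 and 545.

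Few RPF reads lay behind most members. A low-footprint mRNA had between 4 and 1496 RPF reads over the 4 RPF libraries, with a median of 34. The median member had 13 and 5 RPF reads in release and 12 and 5 in stasis. No RPF read was counted for 0 and 10 members in release and for 1 and 20 members in stasis. Such a 0 does not show absence, since 3 reads, the number that a count of 0 allows, equal 2.42 and 9.72 RPM in release and 2.01 and 11.5 RPM in stasis, counting error only.

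The lowest ratio of all belonged to GSOIDT00003384001, a gene model without annotation in the sources used here. It had 997 and 1408 total RNA reads in release and 1079 and 933 in stasis, and 1 and 1 RPF reads in release and 2 and 0 in stasis. Its RPF RPM was thus 0.0180 of its total RNA RPM over all samples (95% exact Poisson interval of the RPF count, 0.00491 to 0.0461). The interval covers counting error only, not the spread between samples, and the gene model was picked as the lowest by this same count. GSOIDT00013508001, next in order, had 2 and 4 RPF reads in release and 0 and 0 in stasis, with 1213 and 1917 total RNA reads in release and 888 and 839 in stasis. Its RPF level of 1.61 and 12.96 RPM in release stood against stasis libraries with no read, whose floors of 2.01 and 11.5 RPM are of the same size, so no fold is given. GSOIDT00008752001 had 3 and 0 RPF reads in release and 2 and 0 in stasis, and GSOIDT00010595001 had 2 and 4 in release and 8 and 2 in stasis. For both, the states overlapped in RPM.

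The 5 most abundant low-footprint mRNAs had the highest total RNA levels, and their levels are given by library. GSOIDT00016759001 had 3263 and 3313 RPM of total RNA in release and 3729 and 3607 RPM in stasis, but its RPF level was 512 and 739 RPM in release and 311 and 649 RPM in stasis. Its RPF libraries overlapped between the states, and its RPF level over its total RNA level was 0.157 and 0.223 in release and 0.0834 and 0.180 in stasis. GSOIDT00000347001 had 3069.6 and 2624 RPM of total RNA in release and 2142 and 2505 RPM in stasis, with RPF levels of 214 and 402 RPM in release and 398 and 317 RPM in stasis. GSOIDT00015055001 had RPF levels of 65.3 and 97.2 RPM in release and 49.0 and 164 RPM in stasis, against a mean total RNA level of 1224 RPM. For both of these the states overlapped too. GSOIDT00014314001 had RPF levels of 118 and 139 RPM in release and 44.3 and 168 RPM in stasis (mean total RNA level 893 RPM). GSOIDT00015362001, an unnamed protein that the annotation marks as not *trans*-spliced, had RPF levels of 31.4 and 181 RPM in release and 18.8 and 244 RPM in stasis (mean total RNA level 899 RPM). In the last of these the second replicate was several times the first in both states.

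The study's annotation was at hand for 1998 gene models, which are the top of a list ordered by another readout and no random part of the genome. It covered 16 of the 200 low-footprint mRNAs, 8 with a name, and 262 of the 2885 eligible gene models, 175 with a name. Of the 16, 4 were marked as *trans*-spliced and 4 as present in oocytes, beside 76 of 262 (29.0%) and 55 of 262 (21.0%) among the eligible gene models. With 16 annotated members, both counts are close to the eligible shares. The oocyte mark rests on separate data from oocytes, not on these animals, and the paper places growth arrest before meiosis begins. No named low-footprint mRNA fell into the keyword classes RNA processing, translation, glycosylation, secreted and house proteins or transporters, but these held no more than 3, 3, 5, 9 and 3 of the 262 annotated eligible gene models, so nothing is read from the absence among 16.

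3 of the 8 named low-footprint mRNAs were marked both as *trans*-spliced and as present in oocytes. One was *methyltransferase like 3* (GSOIDT00005147001), named for the catalytic subunit of the complex that writes N6-methyladenosine on mRNA in other animals. Its total RNA level was 115 and 132 RPM in release and 177 and 159 RPM in stasis, and its RPF level was 16.1 and 12.96 RPM in release and 18.1 and 22.9 RPM in stasis. Both levels were lower in each release sample than in each stasis sample. *Lactation elevated 1* (GSOIDT00006649001), named for a mitochondrial ATPase, had RPF levels of 24.99 and 51.8 RPM in release and 19.5 and 103 RPM in stasis, against 219 and 235 RPM of total RNA in release and 252 and 246 RPM in stasis. *cg10889* (GSOIDT00000289001), which carries the name of a *Drosophila* gene, had RPF levels of 24.2 and 77.8 RPM in release and 16.1 and 87.9 RPM in stasis, against 439 and 445 RPM of total RNA in release and 538 and 472 RPM in stasis. For these last 2 genes, the RPF states overlapped and the second replicates were the high ones.

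2 of the named low-footprint mRNAs encode protein kinases. The *trans*-spliced *calcium calmodulin dependent protein kinase ii* (GSOIDT00004056001), named for a calcium-activated kinase of nerve and muscle cells, had 2 and 3 RPF reads in release and 7 and 4 in stasis, against 55.1 and 53.5 RPM of total RNA in release and 76.2 and 68.0 RPM in stasis. In RPM its RPF level was 1.61 and 9.72 in release and 4.70 and 15.3 in stasis, so the states overlapped. The *dclk3-like* kinase (GSOIDT00015133001), named for the doublecortin-like kinases, had RPF levels of 12.1 and 16.2 RPM in release and 9.40 and 15.3 RPM in stasis, against 109 and 101 RPM of total RNA in release and 95.2 and 123 RPM in stasis. Its states overlapped in both total RNA and RPF level.

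The remaining 3 named low-footprint mRNAs included the lowest ratio among named ones, *moloney leukemia virus 10-like* (GSOIDT00013236001), named for an RNA helicase that acts with small RNA pathways and against retroelements in mammals. It had 2 and 5 RPF reads in release and 4 and 1 in stasis, against 56.7 and 56.6 RPM of total RNA in release and 68.8 and 61.7 RPM in stasis. A *prominin* splice variant (GSOIDT00009600001), marked as present in oocytes and named for a glycoprotein of membrane protrusions, had 5 and 3 RPF reads in release and 8 and 3 in stasis, against 67.0 and 73.2 RPM of total RNA in release and 68.6 and 54.7 RPM in stasis. Both overlapped between the states in RPF RPM. *Transmembrane serine 8* (GSOIDT00004212001) had 5 and 0 RPF reads in release and 10 and 6 in stasis, against 93.2 and 103 RPM of total RNA in release and 73.5 and 71.7 RPM in stasis. It was the single named member besides *methyltransferase like 3* whose RPF RPM did not overlap between the states, with release below stasis.

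**Figure D2:**
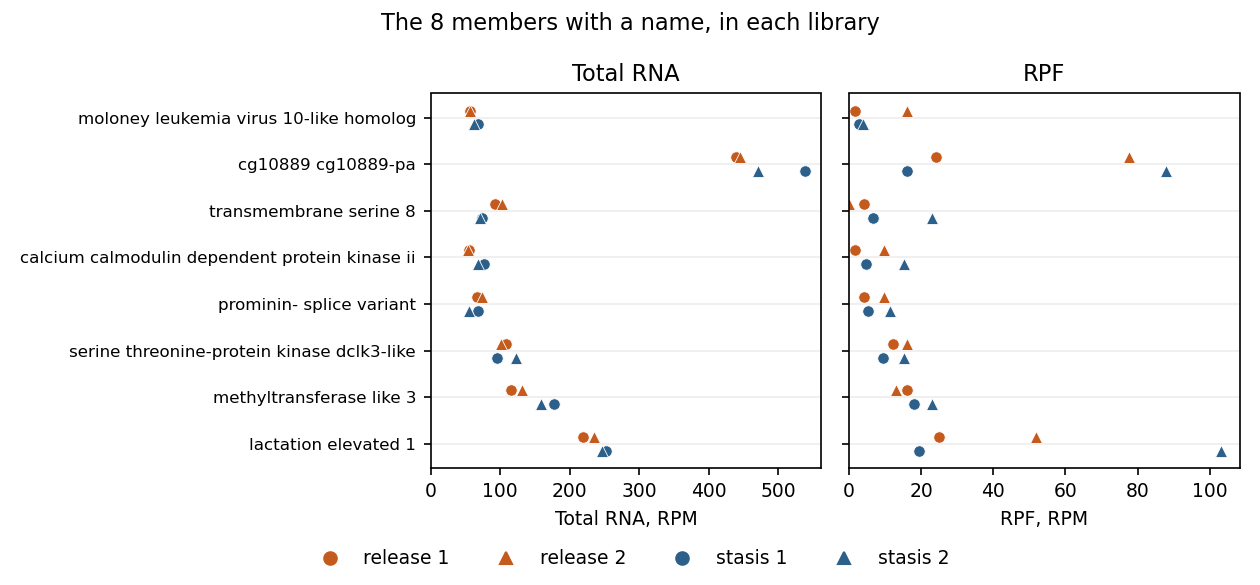
Total RNA level (left panel) and RPF level (right panel) in RPM of the 8 low-footprint mRNAs with a name in the annotation, ordered from the lowest footprint ratio at the top, with 1 point per library (circles replicate 1, triangles replicate 2). Relative to their level, RPF points of a gene are more spread than its total RNA points, with *lactation elevated 1* at 24.99 and 51.8 RPM of RPF in release and 19.5 and 103 RPM in stasis. The contrast is small for *methyltransferase like 3*, whose total RNA was 115 and 132 RPM in release and 177 and 159 RPM in stasis.

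The ratio of summed RPF RPM to summed total RNA RPM was then taken in each sample. For the low-footprint mRNAs it was 0.105 and 0.177 in release and 0.0793 and 0.187 in stasis, a mean of 0.141 ± 0.0505 in release and 0.133 ± 0.0763 in stasis (SD, n = 2 each). Both release values lay between the stasis values. With library totals that leave out the 7 dominant gene models, a choice made after seeing the data, the ratio was 0.129 and 0.298 in release and 0.102 and 0.428 in stasis, a mean of 0.214 in release and 0.265 in stasis. The order of the means was then reversed, and the release values again lay between the stasis values. Over all eligible gene models the ratio was 0.856 and 0.590 in release and 0.817 and 0.397 in stasis, and for the 200 with the most footprints it was 2.25 and 1.56 in release and 2.33 and 0.880 in stasis. The low-footprint mRNAs were lowest in each sample, as the choice set, but their distance from the eligible gene models was smaller in the second replicates.

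**Figure D3:**
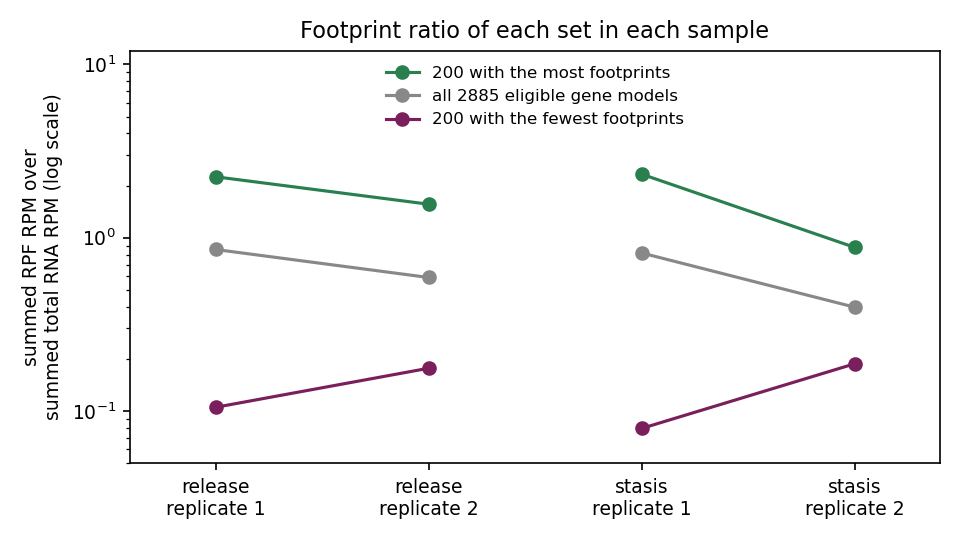
Summed RPF RPM over summed total RNA RPM (vertical axis, log scale) in each of 4 samples for the 200 gene models with the most footprints, all 2885 eligible ones and the 200 low-footprint mRNAs, with lines joining the replicates of a state. The low-footprint mRNAs were higher in replicate 2 than in replicate 1 of each state (0.177 and 0.105 in release, 0.187 and 0.0793 in stasis), and both other sets were lower in replicate 2.

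The summed RPF level of the low-footprint mRNAs differed more between replicates than between states. Their summed RPF RPM in replicate 2 was 1.68 times that in replicate 1 in release and 2.38 times in stasis, and the same quotient for total RNA was 1.00 in release and 1.01 in stasis. Over the eligible gene models the RPF quotient was 0.680 in release and 0.492 in stasis. Of the low-footprint mRNAs, 151 of 200 in release and 156 of 200 in stasis had more RPF RPM in replicate 2 than in replicate 1, beside 29.2% and 28.0% of the eligible gene models. 70.5% of the low-footprint mRNAs' RPF reads came from the first replicates (9035 of 12814 reads), beside 88.9% for the eligible gene models. Part of the contrast follows from the choice, since a low sum favours gene models that are low in the deep libraries, and how large that part is was not tested.

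**Figure D4:**
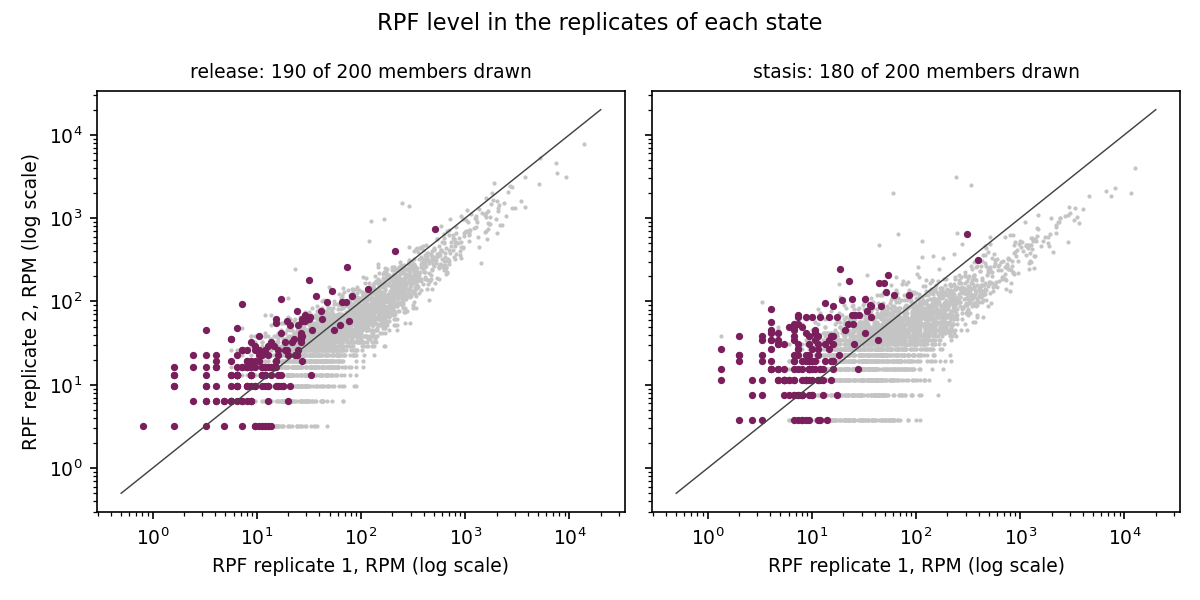
RPF level of replicate 2 against replicate 1 in RPM (log scales) in release (left) and stasis (right), with low-footprint mRNAs as large dark points, other eligible gene models as small grey points and the line of equality. Gene models with no RPF read in 1 or both libraries of a state are left out, so 190 low-footprint mRNAs are drawn in release and 180 in stasis, most of them above the line while most grey points at higher levels lie below it.

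Ranked among the eligible gene models within single samples, 186 and 79 of the 200 low-footprint mRNAs were in the lowest 10% in release and 184 and 44 in stasis. In the lowest 25% there were 200 and 160 in release and 200 and 102 in stasis. The counts in the first replicates follow largely from the rule, whose sum rests mostly on their reads. In all 4 samples, 83 of the low-footprint mRNAs stayed in the lowest 25% and 15 in the lowest 10%. Of all 2885 eligible gene models, 156 and 15 did so. At the other end, 38 of the low-footprint mRNAs were above the median of the eligible gene models in at least 1 sample, beside 2182 of the eligible. Of these 38, 35 were so in the second stasis sample.

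For description, the ranking was also made on the first replicates alone. It shares most members with the rule, and eligibility used total RNA of all samples, so its values in the second replicates are no independent check. The 200 eligible gene models with the lowest ratio in replicate 1 samples, 181 of them low-footprint mRNAs, had a median ratio of 0.0913 in replicate 1 samples, against 0.520 over the eligible gene models. In replicate 2 samples their median ratio was 0.200, against 0.366. By replicate 2 ratios, 67 of them were in the lowest 10%, 132 in the lowest 25% and 15 above the median of the eligible gene models.

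Across the 2885 eligible gene models, the Spearman correlation of the ratio was 0.900 between the first release and first stasis samples, 0.723 between the release replicates, 0.458 between the stasis replicates and 0.434 between the second release and second stasis samples. Within the 200 low-footprint mRNAs, where the choice narrows the range, the correlation was 0.33 between the first release and first stasis samples, and the other 5 pairs of samples lay between -0.19 and 0.07. These correlations are across genes that share libraries and are not independent replicates, and those within the low-footprint mRNAs rest on few reads and on genes chosen by the sum of the values correlated, so nothing is read from them.

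The question put to the release comparison was whether the low-footprint mRNAs gained or lost footprints within 30 min. The rule summed RPF reads over both states and did not use their difference directly. The sum weights each library by its depth, so the choice is not fully neutral between the states. What this adds to the change was not tested. Before any test, the RPF RPM of 32 of 200 (16%) was higher in both release libraries than in both stasis libraries, and that of 14 of 200 (7%) was lower, beside 13.9% and 7.5% of all 14595 gene models tested. The shares of the low-footprint mRNAs were close to those of all gene models, and 154 overlapped between the states.

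The RPF change of no low-footprint mRNA passed the test (edgeR quasi-likelihood test, adjusted p under 0.05: 0 higher and 0 lower, beside 0% and 0.00685% of all gene models tested). At an unadjusted p under 0.05, edgeR gave 1 higher and 3 lower, beside 0.363% and 0.74% of all gene models tested, and DESeq2 called 0 higher and 0 lower after adjustment and 0 higher and 1 lower before, beside 0.158% and 0.322%. The median log2 RPF change of the low-footprint mRNAs, release over stasis, was -0.15, and 84 of 200 (42%) were above 0, beside a median of 0.03 and 51.5% above 0 over all gene models tested. The 200 with the most footprints had a median of 0.20. The standard error of a single member's log2 RPF change had a median of 1.27, beside 0.74 for the eligible gene models.

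The 4 gene models with an unadjusted p under 0.05, chosen after their values were seen, were GSOIDT00013508001, higher in release with the reads and floors given above, and 3 that were lower. Of these, GSOIDT00013219001 had 19 and 17 RPF reads in release and 34 and 46 in stasis, and in RPM its states overlapped. GSOIDT00007908001 had 7 and 0 RPF reads in release and 14 and 10 in stasis, and GSOIDT00017305001 had 8 and 0 in release and 7 and 11 in stasis. The last 2 had no read in the shallow second release library.

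The largest RPF differences without overlap were taken among the 171 low-footprint mRNAs with at least 20 RPF reads, of which 25 (14.6%) were higher and 11 (6.43%) lower in release, beside 14.7% and 7.63% of all gene models tested with at least 20 RPF reads. GSOIDT00004450001 had RPF levels of 11.3 and 12.96 RPM in release and 4.03 and 0 RPM in stasis (log2 change 1.99, SE 1.63, adjusted p = 1 by edgeR). GSOIDT00011787001 had 8.87 and 16.2 RPM in release and 5.37 and 0 RPM in stasis (log2 change 1.65, SE 1.57, adjusted p = 1 by edgeR). In the other direction, GSOIDT00007908001 had 5.64 and 0 RPM in release and 9.40 and 38.2 RPM in stasis (log2 change -2.84, SE 1.33, adjusted p = 1 by edgeR), and *transmembrane serine 8* had 4.03 and 0 RPM in release and 6.72 and 22.9 RPM in stasis (log2 change -2.57, SE 1.63, adjusted p = 1 by edgeR). Each of these 4 rests on a library with no RPF read, and none passed the test. With 1 sample left out, the log2 change ran from 1.56 to 5.88 for GSOIDT00004450001, from 1.10 to 5.87 for GSOIDT00011787001, from -7.20 to -1.29 for GSOIDT00007908001 and from -6.49 to -1.26 for *transmembrane serine 8*.

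TE change, the RPF change relative to the total RNA change, was tested as the interaction of state and assay, and its total RNA side was bounded by the choice of members. No low-footprint mRNA passed (edgeR, adjusted p under 0.05: 0 higher and 0 lower, beside 0% and 0% of all gene models tested). At an unadjusted p under 0.05, edgeR gave 5 higher and 1 lower, beside 2.45% and 3.5% of all gene models tested, and DESeq2 gave 3 higher and 2 lower, beside 1.19% and 2.2%, with 0 in each direction after adjustment. The higher ones were GSOIDT00001202001, GSOIDT00003323001, GSOIDT00003088001, GSOIDT00004619001 and GSOIDT00006987001, and the lower one was *transmembrane serine 8*. The median log2 TE change of the low-footprint mRNAs was 0.05, and 102 of 200 were above 0, beside a median of -0.03 over all gene models tested and 0.05 over the 200 with the most footprints.

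Single libraries decided the direction of the median. The median log2 RPF change of the low-footprint mRNAs was -0.96 without the first stasis sample and 0.62 without the second, and it was 0.21 without the first release sample and -0.71 without the second. For TE change it was -1.07 without the first stasis sample and 0.59 without the second, and 0.49 without the first release sample and -0.41 without the second. The lone sample left in a state was assumed to vary like those of the other state. Without the first stasis sample, GSOIDT00013219001 passed as lower in RPF (log2 change -2.86, adjusted p = 0.0181 by edgeR), beside 0.226% of all gene models tested, and the unnamed GSOIDT00006675001 passed as lower in TE (log2 change -3.24, adjusted p = 0.0465 by edgeR), beside 0.322%. Without the second stasis sample, GSOIDT00001202001 (log2 change 2.73, adjusted p = 0.0310 by edgeR) and GSOIDT00005727001 (log2 change 3.10, adjusted p = 0.0279 by edgeR) passed as higher in TE, beside 0.308% of all gene models tested. These 4 were picked out by fits with a lone stasis sample, and with all samples none of them passed. At an unadjusted p under 0.05, the fit without the first stasis sample gave 39 of 200 lower in RPF and 51 of 200 lower in TE, beside 3.76% and 6.87% of all gene models tested. The fit without the second stasis sample gave 14 of 200 higher in RPF and 22 of 200 higher in TE, beside 0.808% and 4.77%, and after adjustment 0 members were higher in RPF, beside 0.0548%. The direction depended on which stasis replicate remained. The choice of members favours such a reversal, since 70.5% of their RPF reads came from the first replicates and a low sum was required. In stasis, the pooled ratio of the low-footprint mRNAs was 0.0793 in replicate 1 and 0.187 in replicate 2. How much the choice adds to the counts of these fits was not tested. Nothing is therefore read from those counts beside the shares of all gene models.

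**Figure D5:**
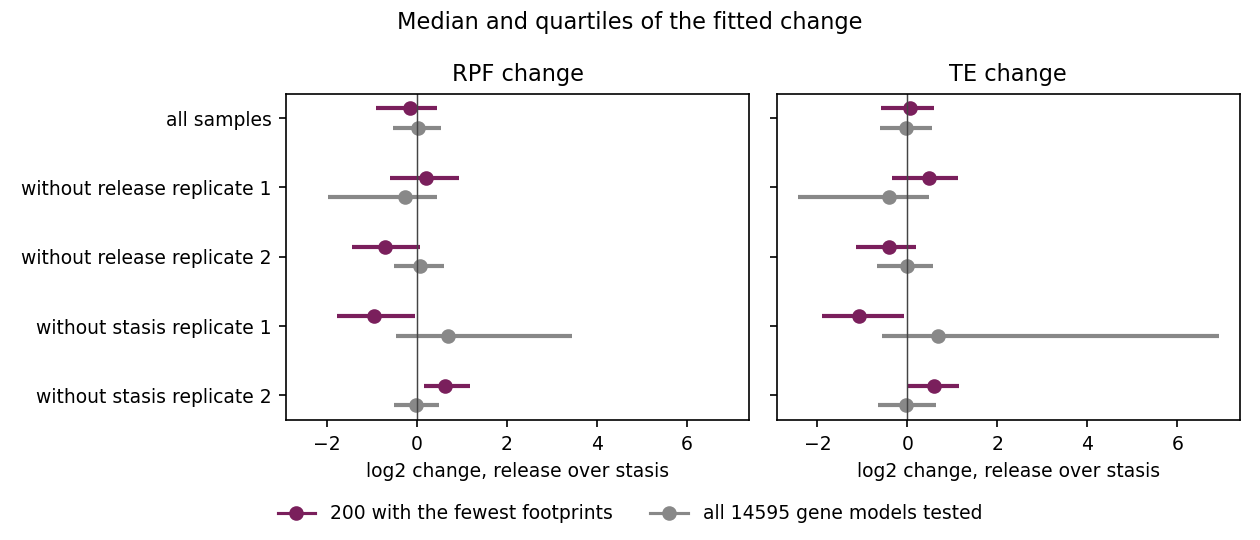
Median (points) and quartiles (lines) of the log2 RPF change (left) and log2 TE change (right), release over stasis, with all samples and with each sample left out, for the 200 low-footprint mRNAs and for all 14595 gene models tested. The median RPF change of the low-footprint mRNAs was -0.15 with all samples, -0.96 without stasis replicate 1 and 0.62 without stasis replicate 2.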

How the data were processed

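The authors mapped reads that did not match rRNA or tRNA to the *O. dioica* genome and counted them per gene model, and the deposited values are these whole-number counts, with no normalisation. The submitters' processing notes name Bowtie2 2.1.0, TopHat2 2.0.13 and featureCounts. Genome build, strandedness and multi-mapping were not given in the sources used here. Counts of near-identical gene copies and overlapping genes are therefore uncertain. The labels name RNAqueous for total RNA, the methods RNEasy. Identifiers are as deposited, and 0 matched the RefSeq gene table, so no coordinates or sequences are given.

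RPM used the library total of all gene models. A minimum of 100 reads, summed over 8 libraries, left 14595 gene models, including all 200 members. They were tested with edgeR 4.0.16 (TMM within each assay, glmQLFit, glmQLFTest; R 4.3.3). P-values were adjusted by Benjamini-Hochberg over all 14595 and called under 0.05. RPF change used 4 libraries, and TE change was the interaction of state and assay over 8. Standard errors were derived from the F statistic (log2 change divided by its root) and carry no information beyond the p-value. The study's own TE tool, babel, was not used here. DESeq2 1.42.0 and limma 3.58.1 served as alternatives, and the edgeR script was run on simulated data. The simulation changed only gene models above a minimum of RPF reads and held no replicate effect. It therefore does not bear on the result for the low-footprint mRNAs. Figures used Python 3.11.15 and matplotlib 3.10.9.

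Members and lists were chosen with earlier results of these data known. The genes named were the 10 lowest ratios (at most 4 described if unnamed), those at the threshold, all with a name, the 5 most abundant, any called, and the 2 largest RPF changes without overlap in each direction. The annotation gave names, name-based lists, the muscle gene models left out, and *trans*-splicing and oocyte marks.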

Additional observations from a re-analysis of the deposited data

How the results depend on the processing

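No low-footprint mRNA was called in RPF or TE change by DESeq2, library totals in place of TMM, other filters on low counts, TMM over all 8 libraries, or limma on the TE ratio. The filter of at least 10 reads in every library tested only 30 of the 200 members, so the others could not be called there. Over these and the block fits the members' median log2 change lay between -0.20 and 0.04 for RPF and between -0.20 and 0.29 for TE. Both lower ends come from the 30 members past that filter. With each sample left out in turn it lay between -0.96 and 0.62 for RPF and between -1.07 and 0.59 for TE. The cause was not tested. The 4 single RPF changes given kept their sign in each alternative that tested them, while their size moved with the sample left out.

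Samples of the states share replicate numbers. The correlation of same-numbered deviations over 14595 gene models was 0.145 between release and stasis RPF and 0.193 for total RNA, with 2 numbers per state. Only 1804 of these gene models had at least 10 reads in every library, so a low correlation cannot exclude a shared replicate difference. Summed RPF RPM in replicate 2 over replicate 1 was 1.68 and 2.38 for the low-footprint mRNAs in release and stasis. Over the eligible gene models it was 0.680 and 0.492. The main tests did not take the numbers as a pairing, so a shared replicate difference counts as spread there. With a replicate block the median log2 change was -0.06 for RPF and 0.02 for TE, with 0 calls in either direction, and a replicate block within each assay, added after seeing the data, gave 0.01 for TE and 0 calls.

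Which gene models were members depended on the settings. Of the 200, 108 were kept with an RNA minimum of 25 RPM (where 5167 gene models were eligible), 75 with 100 RPM (where 1180 were eligible), 127 with a window of 0.8 to 1.2 and 62 when ranked on the second replicates. Part of the loss with another minimum or window is fixed in advance. The members' median total RNA level was 95.1 RPM, and the lower quartile of their level in release over stasis was 0.780. Other rankings and windows kept 147 to 181, and leaving out 1 sample kept 148 to 180. The pooled ratio ranged from 0.105 to 0.177 in release and from 0.0793 to 0.187 in stasis with 1 sample left out. Without the 7 dominant gene models, added after seeing the data, it was 0.214 in release and 0.265 in stasis. Single members had a median of 34 RPF reads, and each state had 2 samples.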
